A study of Mus musculus with 4 samples.

Results

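The 9 genes described here encode TNF superfamily ligands (Fasl, Tnfsf10, Lta, Ltb and Tnfsf14) and receptors (Fas, Tnfrsf1a, Tnfrsf1b and Tnfrsf9), and they were picked by symbol from the 26611 genes of the count table, in which all 9 were found. Their RNA was measured in natural killer (NK) cells of mouse spleen, in 2 wild-type (WT) and 2 Tcf7 knock-out (KO) C57BL/6 mice, 1 library per mouse. Tcf7 encodes the transcription factor Tcf-1, and the series asks what it does in NK cells. Every library came from cells sorted as negative for TCRbeta and positive for NK1.1, NKp46, CD11b and KLRG1, so that all of them represent the mature end of the NK cell pool. The type of knock-out allele, the cells in which it acts and the age of the mice are not given in the sources used here.

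TNF superfamily ligands are trimeric proteins, on the cell surface or released, that cluster their receptors on a target cell. Fas and the TRAIL receptor carry an intracellular death domain that recruits the adaptor FADD and caspase 8, and NK cells use their ligands as a route to kill besides perforin and granzymes. Other pairs mainly signal through TRAF adaptors to NF-kB: lymphotoxin beta builds lymphoid tissue, TNF receptors shape inflammation, and 4-1BB (Tnfrsf9) is a co-stimulatory receptor of activated lymphocytes.

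The libraries held 28254693 to 40175537 counts. Levels are in CPM, counts per 1000000 after TMM scaling of the library sizes, where 1 CPM stands for 29.3 to 39.3 counts. Tcf7 stood at 89.5 and 79.1 CPM in WT cells against 11.2 and 25.1 CPM in KO cells (log2 fold change -2.22). Ncr1 and Klrb1c, which encode NKp46 and NK1.1, stood at 1510 to 1732 and 3595 to 4767 CPM (log2 fold changes -0.08 and -0.01). Itgam, which encodes CD11b, stood at 1149 and 1547 CPM in WT cells against 943 and 1418 CPM in KO cells (-0.19). Klrg1, the gene of KLRG1, was higher in both KO libraries, at 817 and 740 CPM in WT cells against 1410 and 915 CPM in KO cells. Its log2 fold change was 0.58, with an unadjusted edgeR p of 0.104. The 10 NK cell genes checked had a median log2 fold change of 0.01. With 2 libraries per genotype the smallest p of an exact permutation test is 0.333, so the genes were tested with edgeR (quasi-likelihood), which shares its estimate of spread over 12723 genes. It called 0 genes at an adjusted p under 0.05 (0%), while DESeq2 called 71 (0.558%) and 361 genes (2.84%) had an unadjusted edgeR p under 0.05. The KO libraries also held more RNA of erythroid genes, with summed levels of 7 markers of 28.6 and 38.3 CPM in WT cells against 126 and 210 CPM in KO cells.

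Of the 9 genes, 8 had enough counts to be tested and Lta had not. Ltb was lower in both KO libraries than in both WT libraries, Tnfrsf9 and Fasl were higher in both, and the other 5 tested genes overlapped between genotypes. With genotype as the only term, none of the 8 passed the edgeR test over all genes (adjusted p = 1.00 for each) or DESeq2. With the replicate number as a further term, edgeR called 221 of 12723 genes, among them Ltb (adjusted p = 0.00523). Whether that number marks a shared day or litter is not stated by the labels. Of all tested genes, 21.2% had groups that did not overlap, 9.64% with KO higher and 11.6% with KO lower. Ltb and Tnfrsf9 had an unadjusted edgeR p under 0.05, which 1.14% of tested genes had with KO lower and 1.7% with KO higher. The unadjusted p of Ltb and Tnfrsf9 was 0.0143 and 0.0492 in DESeq2 and 0.0317 and 0.0349 in limma voom. With scaling by library size only, the unadjusted edgeR p was 0.0537 for Ltb and 0.0521 for Tnfrsf9. With a filter of at least 5 CPM in 2 libraries it was 0.0581 for Ltb and 0.0383 for Tnfrsf9. With no filter on low counts it was 0.00664 for Ltb and 0.0395 for Tnfrsf9. With each library left out in turn, it ranged from 0.000507 to 0.128 for Ltb and from 0.0582 to 0.316 for Tnfrsf9. The median log2 fold change was -0.11 over the 8 genes and -0.01 over all tested genes.

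**Figure D1:**
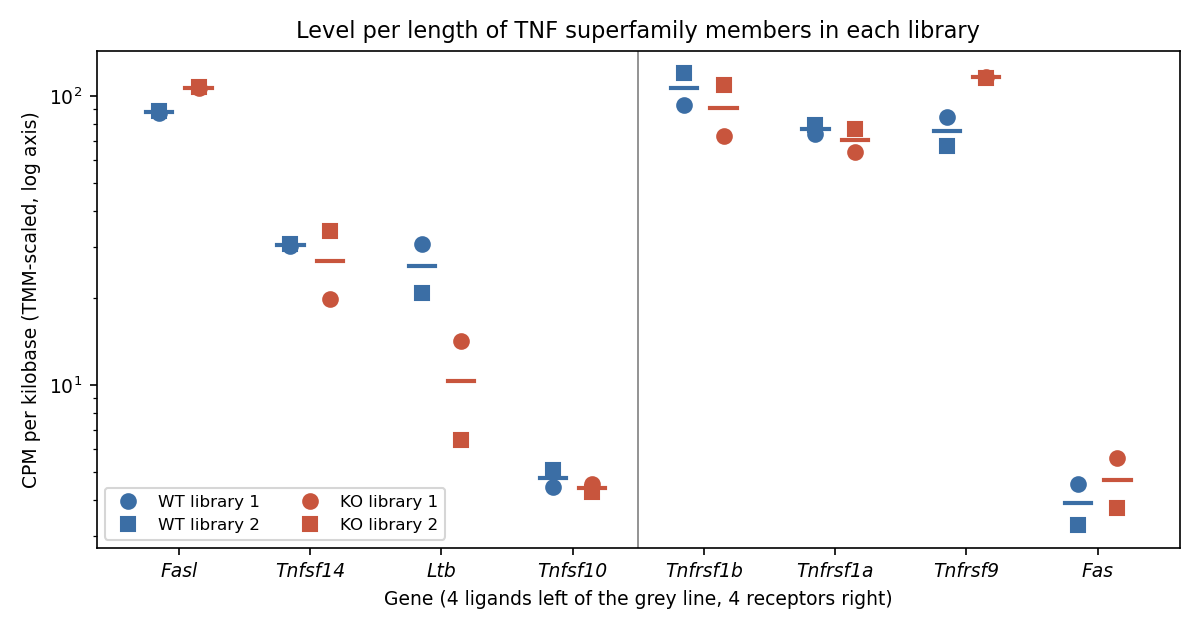
Level per length of the 8 tested genes in each library, in CPM per kilobase on a log axis, with ligands left and receptors right of the grey line; circles are the libraries numbered 1, squares those numbered 2, and short lines the mean of 2 libraries. Ltb lies lower and Fasl and Tnfrsf9 lie higher in both KO libraries (red) than in both WT libraries (blue), and the other 5 genes overlap. Lta, at 0 to 0.111 on this scale, is left out.

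Compared per kilobase of the deposited gene length, the genes lay in 3 tiers in WT cells. Tnfrsf1b was highest at 106 ± 19.0 CPM per kilobase, ahead of Fasl at 88.2 ± 0.911, Tnfrsf1a at 76.7 ± 3.64 and Tnfrsf9 at 75.8 ± 12.1 (SD, n = 2 each). The neighbours Tnfrsf1a and Tnfrsf9 overlapped, whereas the 2 libraries of Tnfrsf1b lay above those of Fasl by a difference of means within the SD of Tnfrsf1b. The genes for LIGHT (Tnfsf14, 30.6 ± 0.350) and lymphotoxin beta (Ltb, 25.7 ± 6.96) formed the middle tier and overlapped. TRAIL (Tnfsf10, 4.74 ± 0.459) and Fas (3.91 ± 0.904) were at the low end, also overlapping, and Lta was near 0. Fasl, the death ligand, was thus above 92.3% of tested genes in level per length, while its receptor Fas was above 34.9%.

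In KO cells the order per length differed at the top. Tnfrsf9 came first at 116 ± 1.32 CPM per kilobase and did not overlap Fasl at 107 ± 0.626. Fasl overlapped Tnfrsf1b at 91.0 ± 26.1, which in turn overlapped Tnfrsf1a at 70.5 ± 8.78. Below them Tnfsf14 stood at 26.9 ± 10.1, apart from Ltb at 10.4 ± 5.50, and Fas (4.67 ± 1.32) and Tnfsf10 (4.41 ± 0.204) overlapped (SD, n = 2 each).

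Among the 4 tested ligands, Ltb had the largest difference. It encodes lymphotoxin beta, a membrane protein that anchors lymphotoxin alpha and signals through the lymphotoxin beta receptor. The gene (Entrez 16994) lies on mm10 chromosome 17, 35194507 to 35196305, on the plus strand. GENCODE places the microRNA gene Mir6973a inside it on the same strand, over 78 bases. Fas and Lta likewise hold a same-strand gene, Gm27818 over 159 bases and Mir6974 over 83 bases. How reads in such overlaps were counted is not given in the sources used here. Its counts were 1091 and 895 in WT against 457 and 255 in KO libraries, which is 33.6 and 22.8 CPM against 15.6 and 7.07 CPM. The lowest WT library lay above the highest KO library, and within each genotype the library numbered 1 was the higher. The WT mean was 28.2 ± 7.62 CPM and the KO mean 11.3 ± 6.02 CPM, both SD with n = 2, a KO level 0.402 times that of WT. The log2 fold change was -1.32 (SE 0.47, 95% interval -2.58 to -0.05), with an edgeR p of 0.0440 before and 1.00 after adjustment over the genes tested, and 0.778 after adjustment in DESeq2. In absolute size this fold change exceeded that of 96.7% of tested genes. With the replicate number as a further term in edgeR, the log2 fold change of Ltb was -1.39 (SE 0.184, adjusted p = 0.00523). What that number marks is not stated by the labels.

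Lymphotoxin beta is also made by B cells, T cells and innate lymphoid cells of the lymphoid tissue inducer kind, so the markers of these cells are given beside it. The summed level of 11 B cell markers was 204 and 158 CPM in WT cells against 246 and 188 CPM in KO cells, and 5 of 10 tested markers were above 0 in log2 fold change. The sum of 11 T cell markers was 230 and 176 CPM in WT cells against 309 and 163 CPM in KO cells, with 4 of 10 above 0. Of these, named after their values were seen, Cd3e stood at 0.239 to 0.610 CPM, Trbc1 at 56.0 to 92.6 CPM and Trbc2 at 65.0 to 122 CPM. Trac stood at 5.88 and 8.30 CPM in WT cells against 94.0 and 36.1 CPM in KO cells, with an adjusted p of 1.00 in edgeR and 7.04e-06 in DESeq2. Of other innate lymphoid markers, 8 genes summed to 116 and 128 CPM in WT cells against 50.1 and 115 CPM in KO cells, and 3 of 7 tested were above 0. Il7r stood at 9.38 and 5.80 CPM in WT cells against 0.648 and 1.08 CPM in KO cells, and Kit at 50.3 and 21.9 CPM in WT cells against 5.11 and 7.21 CPM in KO cells. The part of such cells in the level of Ltb was not tested. In these bulk samples, fewer cells of a type and less RNA per cell cannot be told apart.

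The promoter of Ltb is shown because this gene had the largest difference of those tested, together with those of Tnfrsf9, the receptor with the largest difference, which has 2 annotated starts. Each sequence is the 250 bases before a RefSeq transcription start (GRCm38.p6, the mm10 assembly), 5′ to 3′ on the strand of the gene. Capitals mark matches to 2 motifs searched on both strands. The first is the TCF/LEF motif bound by Tcf-1, CTTTG followed by A or T at each of the next 2 positions, and the second is the NF-kB consensus.
Ltb, plus strand, chr17:35194257-35194506: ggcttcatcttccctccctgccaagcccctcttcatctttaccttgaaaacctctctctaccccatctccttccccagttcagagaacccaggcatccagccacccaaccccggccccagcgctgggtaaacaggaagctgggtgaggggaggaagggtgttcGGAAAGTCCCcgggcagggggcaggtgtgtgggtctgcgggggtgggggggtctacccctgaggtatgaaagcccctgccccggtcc
Tnfrsf9, first start, plus strand, chr4:150919905-150920154: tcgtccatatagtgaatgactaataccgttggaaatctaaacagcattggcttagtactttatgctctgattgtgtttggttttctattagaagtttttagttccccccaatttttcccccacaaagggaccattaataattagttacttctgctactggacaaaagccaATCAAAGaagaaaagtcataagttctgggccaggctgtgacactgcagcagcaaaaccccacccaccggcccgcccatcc
Tnfrsf9, second start, plus strand, chr4:150927749-150927998: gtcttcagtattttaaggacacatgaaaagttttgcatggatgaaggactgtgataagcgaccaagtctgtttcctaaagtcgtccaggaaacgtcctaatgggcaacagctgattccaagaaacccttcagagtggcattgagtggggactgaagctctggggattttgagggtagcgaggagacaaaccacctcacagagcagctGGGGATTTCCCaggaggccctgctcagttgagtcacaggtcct
The Ltb window held 1 match to the NF-kB consensus, 87 to 78 bases before the start on the reverse strand, and 0 to the TCF/LEF motif. The first Tnfrsf9 window held 1 TCF/LEF match, 80 to 74 bases before the start, and 0 NF-kB matches, while the second held 2 overlapping NF-kB matches between 43 and 33 bases before the start and 0 TCF/LEF matches. Among the other members, Fas and Tnfrsf1a held 1 TCF/LEF match each, and Fasl, Tnfsf10, Tnfsf14, Lta and Tnfrsf1b held 0 of either motif. Of 32851 promoter windows of this length, 14.8% held the TCF/LEF motif and 3.9% the NF-kB consensus. Of the 12292 windows of tested genes, 10.3% held the first and 4.5% the second. A match is only a match of letters, and its absence says nothing of the factor outside this window.

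Lta and Tnf, the other genes of the same cluster, were close to undetected. Ltb, Tnf and Lta follow each other on chromosome 17 with gaps of 3.1 and 1.2 kb. Lta, which encodes lymphotoxin alpha (chromosome 17, 35203165 to 35205578), was counted 5 and 2 times in WT and 1 and 0 times in KO libraries. A count of 0 allows up to 3 counts, 0.0764 to 0.102 CPM. The ratio of KO to WT over the summed counts of Lta was 0.157, with an exact 95% interval of 0.00348 to 1.22 that covers counting error only. Tnf, named after its values were seen, was counted 5 and 5 times in WT and 2 and 3 times in KO libraries. Thus Ltb was the only gene of these 3 with enough counts to be tested in these sorted cells.

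Fasl, which encodes the Fas ligand that kills Fas-bearing cells, varied little between libraries of a genotype. The gene (Entrez 14103) lies on chromosome 1, 161780691 to 161788495, on the minus strand. It stood at 169 and 172 CPM in WT cells against 206 and 208 CPM in KO cells. The KO libraries were above the WT libraries, and the 2 libraries of each genotype lay close together. The WT mean was 171 ± 1.76 CPM and the KO mean 207 ± 1.21 CPM, both SD with n = 2, a KO level 1.21 times that of WT. The log2 fold change was 0.28 (SE 0.18, 95% interval -0.21 to 0.76), with an edgeR p of 0.197 before and 1.00 after adjustment. This SE includes the spread that edgeR estimates over all genes.

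Tnfsf10 encodes TRAIL, the ligand by which NK cells kill through TRAIL receptors, and is most abundant in immature and liver-resident NK cells. It stood at 21.8 and 25.1 CPM in WT cells against 22.5 and 21.1 CPM in KO cells. The genotypes overlapped, and the log2 fold change was -0.11 (SE 0.22, 95% interval -0.68 to 0.47). Tnfsf14 encodes LIGHT, a ligand of the receptors HVEM and lymphotoxin beta receptor. It stood at 56.4 and 57.3 CPM in WT cells against 36.8 and 63.2 CPM in KO cells. Its KO libraries lay on either side of the WT libraries, and the log2 fold change was -0.18 (SE 0.32, 95% interval -1.05 to 0.68).

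Among the receptors, Tnfrsf9 had the largest difference. It encodes 4-1BB (CD137), which activated NK and T cells display and which signals through TRAF adaptors without a death domain. The gene (Entrez 21942) lies on chromosome 4, 150920155 to 150946104, on the plus strand. It was counted 6087 and 5861 times in WT and 7609 and 9204 times in KO libraries, or 187 and 149 CPM against 259 and 255 CPM. Both KO libraries lay above both WT libraries, and the WT libraries differed more from each other than the KO libraries did. The WT mean was 168 ± 26.9 CPM and the KO mean 257 ± 2.93 CPM, both SD with n = 2, a KO level 1.53 times that of WT. The log2 fold change was 0.61 (SE 0.21, 95% interval 0.05 to 1.18), with an edgeR p of 0.0393 before and 1.00 after adjustment over the genes tested. In GENCODE, the antisense gene Camta1 spans part of Tnfrsf9, but their exons share 0 of the 2722 exon bases of Tnfrsf9, and Camta1 stood at 4.79 to 8.76 CPM.

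The ligand of 4-1BB, Tnfsf9, was low in the same cells at 2.83 and 2.77 CPM in WT cells against 3.24 and 3.69 CPM in KO cells (log2 fold change 0.31, SE 0.33). Of the adaptors that 4-1BB recruits, Traf1 stood at 78.9 and 79.3 CPM in WT cells against 58.6 and 82.6 CPM in KO cells, and Traf2 at 58.4 and 66.7 CPM in WT cells against 62.4 and 70.1 CPM in KO cells. Both overlapped between genotypes. Traf1 and Traf2 were chosen after their values were seen.

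The TNF receptor genes overlapped between genotypes. Tnfrsf1a encodes TNFR1, the TNF receptor with a death domain (chromosome 6, 125349723 to 125362483). It stood at 160 and 171 CPM in WT cells against 138 and 165 CPM in KO cells, a log2 fold change of -0.12 (SE 0.20, 95% interval -0.66 to 0.42). Tnfrsf1b encodes TNFR2, which lacks a death domain and acts through TRAF adaptors (chromosome 4, 145212368 to 145246870). It stood at 457 and 589 CPM in WT cells against 356 and 537 CPM in KO cells, a log2 fold change of -0.23 (SE 0.30, 95% interval -1.02 to 0.56). For both genes the library numbered 1 was the lower of each genotype.

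Fas encodes the death receptor CD95 (chromosome 19, 34290647 to 34327775). It stood at 8.18 and 5.88 CPM in WT cells against 10.1 and 6.74 CPM in KO cells, with the library numbered 1 the higher of each genotype. The log2 fold change was 0.26 (SE 0.35, 95% interval -0.66 to 1.18), an interval that holds a KO level from 0.631 to 2.27 times that of WT. Macrophages and granulocytes also express Fas and the TNF receptors. Of 18 myeloid and dendritic markers, 17 were above 0 in log2 fold change. Without Itgax, an integrin that NK cells also express, they summed to 174 and 40.7 CPM in WT cells against 619 and 97.6 CPM in KO cells. Their part in the levels of Fas, Tnfrsf1a and Tnfrsf1b was not tested.

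**Figure D2:**
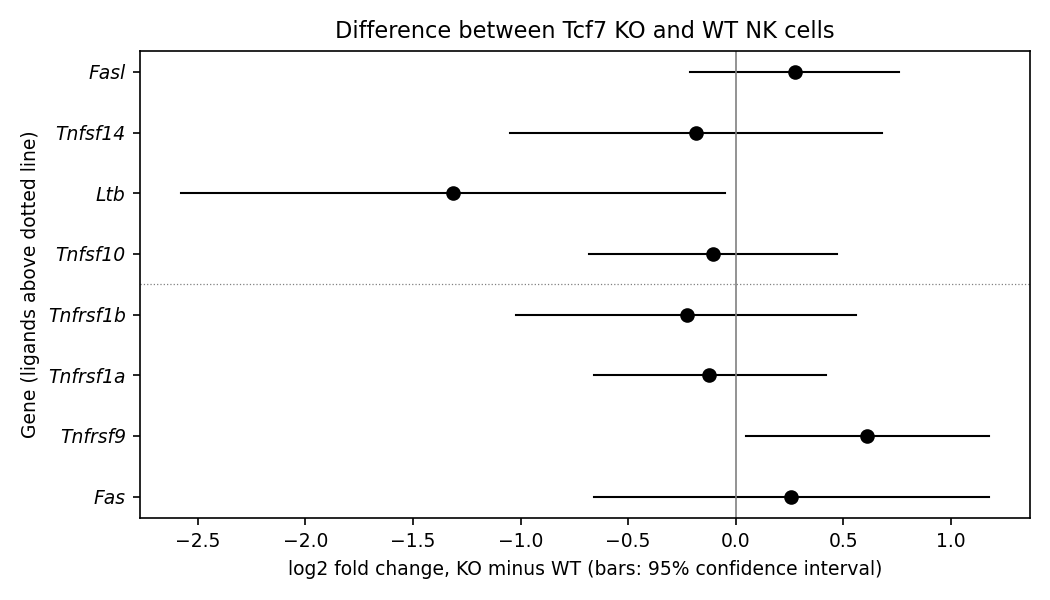
Log2 fold change (KO minus WT, points) of the 8 tested genes with its 95% confidence interval from edgeR (bars, not adjusted for the number of genes), ligands above and receptors below the dotted line. The intervals of Ltb (-2.58 to -0.05) and Tnfrsf9 (0.05 to 1.18) lie to 1 side of 0, and the other 6 hold 0.

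With each library left out in turn, Ltb, Tnfrsf9 and Fasl kept their sign in all 4 fits. Since their genotypes did not overlap, leaving out a library could hardly turn the sign, so keeping it adds no support. The log2 fold change of Ltb was -1.99 without KO library 1 and -0.82 without KO library 2. That of Tnfrsf9 ranged from 0.48 without WT library 2 to 0.78 without WT library 1, and that of Fasl from 0.26 to 0.30. The sign turned without KO library 1 for Tnfsf14 (0.15), Tnfrsf1b (0.04) and Fas (-0.06), and Tnfrsf1a then stood at 1.2e-05. It turned without WT library 2 for Tnfsf10 (0.01).

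**Figure D3:**
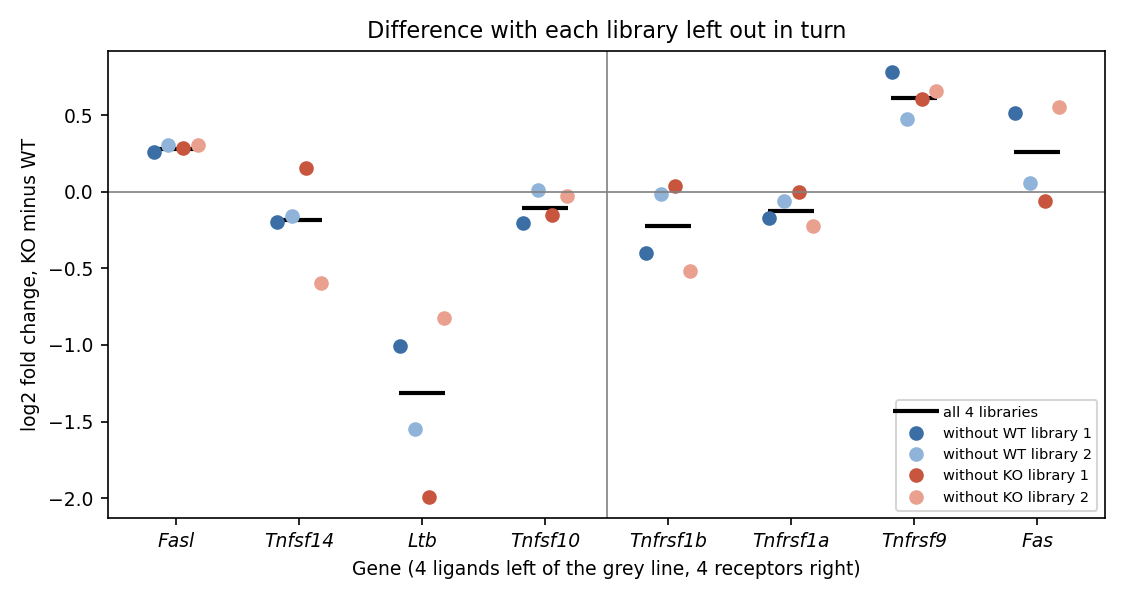
Log2 fold change (KO minus WT) of the 8 tested genes with all 4 libraries (black line) and with each library left out (coloured points), ligands left and receptors right of the vertical line. The points of Ltb (-1.99 to -0.82) stay below 0 and those of Fasl (0.26 to 0.30) and Tnfrsf9 (0.48 to 0.78) above it, while those of the other 5 genes fall on both sides of 0. Ltb, Fasl and Tnfrsf9 do not overlap between genotypes, so their points could hardly change side.

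Few other ligands of the family were expressed. Of 13 further ligand genes, 4 had enough counts to be tested, 1 above and 3 below 0, with a median log2 fold change of -0.32, and 0 passed in edgeR or DESeq2 or had an unadjusted edgeR p under 0.05. Tnfsf12, which encodes TWEAK, was the most abundant at 72.0 and 68.2 CPM in WT cells against 56.3 and 67.5 CPM in KO cells. Tnfsf4, the gene of OX40 ligand, stood at 2.43 and 1.73 CPM in WT cells against 0.818 and 1.30 CPM in KO cells (log2 fold change -0.96, SE 0.49). Cd70 and Tnfsf15, named after their values were seen, were counted 0 times in all 4 libraries.

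Of 24 further receptor genes, 15 were tested, 5 above and 10 below 0, with a median of -0.07. None passed in edgeR or DESeq2 over all genes, and Tnfrsf13b, Tnfrsf26 and Tnfrsf25 had an unadjusted edgeR p under 0.05 (0.0143, 0.0210 and 0.0490), with an edgeR adjusted p of 1.00 each. Over all tested genes, 2.84% had an unadjusted edgeR p under 0.05. Tnfrsf25 and Tnfrsf13b rest on few counts, 31 and 35 in WT against 5 and 14 in KO libraries for Tnfrsf25. For Tnfrsf13b they were 31 and 34 against 126 and 86. Tnfrsf26, a mouse decoy-type receptor gene, stood at 15.9 and 15.4 CPM in WT cells against 9.51 and 6.71 CPM in KO cells (log2 fold change -0.95, SE 0.27). Its neighbours on chromosome 7, the decoy receptor genes Tnfrsf22 and Tnfrsf23, had log2 fold changes of -1.02 (SE 0.56) and -0.57 (SE 0.75), and reads may be split between these similar genes. They were named after their values were seen. Tnfrsf25, which encodes the death receptor DR3, stood at 0.954 and 0.891 CPM in WT cells against 0.171 and 0.388 CPM in KO cells (log2 fold change -1.69, SE 0.63). Tnfrsf13b, which encodes TACI, a receptor of B cells, stood at 0.954 and 0.866 CPM in WT cells against 4.30 and 2.39 CPM in KO cells (log2 fold change 1.87, SE 0.48). The most abundant were Tnfrsf18 (GITR, 114 and 86.7 against 131 and 88.5 CPM) and Cd27 (54.0 and 43.6 against 51.6 and 36.2 CPM), which overlapped between genotypes. Of other receptors of member ligands, chosen after their values were seen, Tnfrsf14 (HVEM) stood at 8.06 and 10.4 CPM in WT cells against 6.34 and 9.93 CPM in KO cells, Ltbr at 0.892 and 0.687 CPM in WT cells against 1.60 and 0.250 CPM in KO cells, and the TRAIL receptor Tnfrsf10b at 4, 0, 5 and 12 counts in the 4 libraries.

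The machinery below the receptors was expressed in both genotypes. All 15 genes of death receptor signalling were tested, 8 above and 7 below 0 with a median of 0.02, and 0 passed in edgeR or DESeq2 or had an unadjusted edgeR p under 0.05. Casp8, the initiator caspase of Fas and TRAIL receptors, stood at 153 and 154 CPM in WT cells against 156 and 184 CPM in KO cells. Its inhibitor gene Cflar (c-FLIP) stood at 96.7 and 126 CPM in WT cells against 75.2 and 113 CPM in KO cells, and the caspase inhibitor gene Xiap at 182 and 196 CPM in WT cells against 186 and 216 CPM in KO cells. Ripk3, a kinase of necroptosis, stood at 19.9 and 23.7 CPM in WT cells against 29.9 and 26.9 CPM in KO cells (log2 fold change 0.38, SE 0.23).

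Of 24 genes of TRAF adaptors and TNF receptor complexes, 8 were above and 16 below 0 with a median of -0.05, and again 0 passed or had an unadjusted edgeR p under 0.05. Traf5 stood at 37.6 and 36.4 CPM in WT cells against 47.5 and 52.4 CPM in KO cells (log2 fold change 0.43, SE 0.21), Traf4 at 15.2 and 17.2 against 17.9 and 19.3 CPM, and Tab1 at 16.9 and 21.8 against 10.1 and 19.9 CPM. The most abundant, Tab2 and the linear ubiquitin ligase gene Rbck1, had log2 fold changes of -0.19 and -0.09. Of 11 NF-kB subunits and inhibitors, 6 were above and 5 below 0 with a median of 0.01, and 0 passed or had an unadjusted edgeR p under 0.05. Nfkbiz stood at 10.6 and 14.9 CPM in WT cells against 5.22 and 9.35 CPM in KO cells (log2 fold change -0.80, SE 0.39). Relb (0.27), Nfkb2 (0.35), Nfkb1 (0.27) and Rela (-0.17) overlapped between genotypes.

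**Figure D4:**
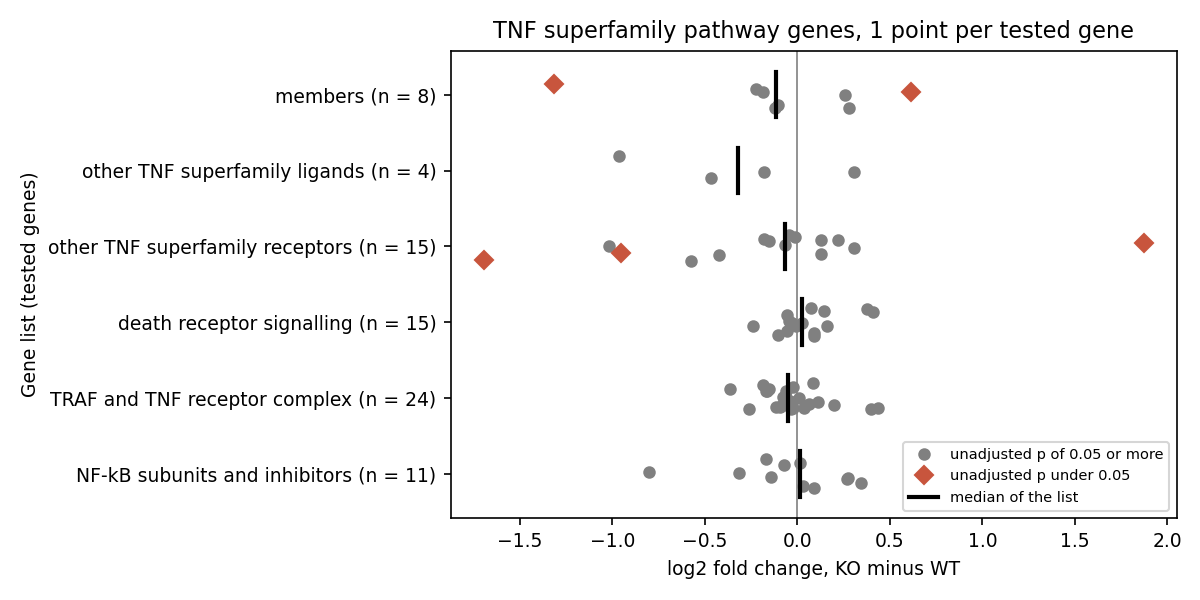
Log2 fold change (KO minus WT) of each tested gene in 6 lists of the TNF superfamily and its signalling, 1 point per gene, with the median of each list as a black bar and genes at an unadjusted edgeR p under 0.05 as red diamonds. The medians lie between -0.32 and 0.02, and the red diamonds are 2 members and 3 other receptors. Of all tested genes, 2.84% had such a p.

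The 3 tested genes with at least 5 CPM whose log2 levels over the 4 libraries lay nearest to those of Ltb, after centring each gene on its mean, were Cd28, Padi4 and Klra4. Their Euclidean distances on the log2 scale were 0.260, 0.361 and 0.384. Cd28, a co-stimulatory receptor gene, stood at 88.9 and 64.8 CPM in WT cells against 39.9 and 23.1 CPM in KO cells. Padi4, which encodes a peptidylarginine deiminase, stood at 30.4 and 26.4 CPM in WT cells against 14.7 and 8.54 CPM in KO cells. Klra4, a Ly49 receptor gene whose reads can be shared with near-identical genes, stood at 1274 and 603 CPM in WT cells against 458 and 211 CPM in KO cells. In each of them, as in Ltb, WT library 1 was highest and KO library 2 lowest, an order that their choice by distance to Ltb favours.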

How the data were processed

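RNA of 4 libraries was sequenced from 200 ng of total RNA each, per the labels' protocols. Each deposited file gives, per its file header, raw read counts by Entrez gene number and a gene length. Per the submitters' processing notes the authors used featureCounts and the mm10 build, and the strand setting, aligner and versions are not given in the sources used here. Of 26611 genes, 25275 matched a symbol in a RefSeq table of GRCm38.p6, and genes without one held 1.23% of counts and stayed in the tests.

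Genes were kept with filterByExpr (minimum count 10) and tested with edgeR 4.0.16 in R 4.3.3 (TMM, robust quasi-likelihood fit, no term besides genotype), with Benjamini-Hochberg adjustment over all 12723 genes and a threshold of 0.05, two-sided. The SE is the fold change over the root of F. DESeq2 1.42.0 and limma 3.58.1 (voom) were alternatives. The fits were tested on simulated counts with the same dispersion for every gene and no effect of the replicate number, so only under those settings. Motif searches used 250 bases before each RefSeq start. Each library came from its own mouse, per the series design text, and pairs of libraries differed by a chi-square per degree of freedom of 36.9 to 285, so none was a copy of another. The WT and KO libraries of the same number differed least, at 68.3 for number 1 and 36.9 for number 2. Within a genotype the value was 147 for WT and 285 for KO.

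The members and gene lists were chosen with earlier results of these data known. All 9 members are named, and of each other list the genes passing edgeR or, as none did, the 3 with the smallest p and the 2 most abundant, except 1 gene that is not reported here. The nearest genes to the member with the largest fold change were named by distance, on log2 values with 0.1 CPM added. Alternatives were other scalings, filters, tools and dispersions, the replicate number as a block, and each library left out.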

Additional observations from a re-analysis of the deposited data

How the results depend on the processing

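Against 0 genes called by edgeR over all genes, 35 were called with no filter on low counts, 71 with DESeq2, 221 with the replicate number as a block, and 0 to 53 with a library left out (33 without KO library 1, 53 without KO library 2). A group left with 1 library is then assumed to vary like the other. Of the 9 members, 0 were called in each fit except the block, which called 1, Ltb (log2 fold change -1.39, adjusted p = 0.00523), with Tnfrsf9 at 0.0523. Of the other pathway genes the block called 1, Tnfrsf26, and the other fits 0. Libraries share only a number, and whether it marks a shared day or litter is not stated by the labels. The difference of library 1 from library 2 correlated between the genotypes at r = 0.874 over 9375 genes. The adjusted p of Ltb ranged from 0.00523 to 1.00 over the 12 alternatives. With a library left out, log2 fold changes ranged from -0.206 to 0.0137 for Tnfsf10, -0.0593 to 0.555 for Fas, -0.595 to 0.155 for Tnfsf14, -0.222 to 1.2e-05 for Tnfrsf1a and -0.52 to 0.0407 for Tnfrsf1b. Ltb, Tnfrsf9 and Fasl kept their sign in all 12 alternatives, which was likely beforehand because their genotypes do not overlap. The cause of these changes was not tested. Depth limits Lta, Tnf and the receptors under 1 CPM.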
